A study of Mus musculus with 3 samples.

Results

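The regions described here are 706 RXRA peaks of mouse multipotent progenitors (MPP) that sat at the ends of neighbouring protein-coding genes. They were chosen from the 29848 peaks of MPP replicate 1 by 3 criteria. The peak overlapped a peak of MPP replicate 2 by at least 1 bp, it overlapped no peak of haematopoietic stem cells (HSC), and its summit lay within 1 kb of an end (start or finish) of 2 or more protein-coding genes. The peak calls of all 3 libraries thus chose the members, and the values of those calls are given as a description with no test. By the first 2 criteria 10882 peaks (36.5%) qualified, and the 706 members were 6.49% of them (95% exact binomial interval 6.03 to 6.97). Of the 1249 replicate 1 peaks at paired gene ends, the members were 56.5%. The same call was made for 49.3% of 7412 peaks at the end of a single gene and 30.8% of 21187 peaks away from gene ends.

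The study mapped RXRA, a retinoid X receptor, on the chromatin of blood stem and progenitor cells. The method was CUT&RUN, where an antibody to the receptor brings a nuclease to its sites and the freed fragments are read by sequencing. The HSC library was made from 10000 cells (lineage-negative, cKit+, Sca1+, CD48-, CD150+) and each of the 2 MPP libraries from 50000 cells (lineage-negative, cKit+, Sca1+, CD150-). All cells were sorted from the bone marrow of C57BL/6 mice of about 10 months, pooled from 3 or 4 animals, and treated for 1 h with bexarotene, an RXR agonist, at 1 mM. The genotype label of all 3 libraries is VavCre+; WT, where Vav drives Cre in blood cells, and the protocol adds that the mice carried floxed Rxra and Rxrb alleles and were called WT. All groups share the drug and the genotype, and a control antibody was not analysed here. Since HSC had 1 library, the absence of a peak in HSC has no replicate check. The labels do not say whether the 2 MPP libraries came from separate pools of mice. None of the 32 marker genes of HSC and MPP identity or of mature blood, stromal and endothelial cells had a member peak at an end, and neither did Rxra, Rxrb or Myc, so the peaks give no check of the sorted cell types.

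RXRA is a nuclear receptor that binds DNA as a homodimer or with partners such as the retinoic acid, vitamin D, liver X and PPAR receptors, typically at direct repeats of the hexamer AGGTCA. Many mammalian genes lie close to a neighbour, and where their starts face away from each other the stretch between them is called a bidirectional promoter. Such promoters are usually rich in GC and CpG, often lack a TATA box, and serve many genes of DNA repair, mitochondria and translation.

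The stretches between the starts of facing pairs are shown because the members lay near them, and each stretch printed below overlaps its member peak. They are taken from the RefSeq promoter table (GRCm38.p6, the mm10 build), on the plus strand, from the base after the minus-strand gene's start to the base before the plus-strand gene's start, so they hold no transcribed base of either gene in that table. Capitals mark matches to the letters searched, on either strand. These are CCGGAAG for ETS factors, GGGCGG for SP factors, CCAAT for NFY, TGACGT for the CRE family, CGCATGCG for NRF1, TCTCGCGA for ZBTB33, CACGTG for the E-box, TTTGGCGC for E2F, AAGATGGCG for YY1, CTACAATTC for ZNF143 and AGGTCA for RXR. Of all 17492 protein-coding promoters, 300 bases each, 11.9% hold the ETS letters, 46.3% SP, 39.2% NFY, 8.71% TGACGT, 2.55% NRF1, 1.53% ZBTB33, 7.91% the E-box, 0.663% E2F, 1.92% YY1, 0.515% ZNF143 and 14.5% AGGTCA. The first group was chosen as pairs of the highest rank in both MPP lists or pairs with a gene of a list described below. Some of its stretches hold ETS or SP matches, and others, such as Rpl9/Lias and Zfpl1/Cdca5, hold no match.
Ccdc157/Sf3a1, chr11:4160294-4160353: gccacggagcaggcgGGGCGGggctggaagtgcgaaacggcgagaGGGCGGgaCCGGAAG
Sdhd/Timm8b, chr9:50603850-50603900: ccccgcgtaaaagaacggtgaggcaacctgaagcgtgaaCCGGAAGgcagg
Rpl9/Lias, chr5:65391432-65391496: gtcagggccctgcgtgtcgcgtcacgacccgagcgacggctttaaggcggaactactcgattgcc
Lrsam1/Rpl12, chr2:32961655-32961711: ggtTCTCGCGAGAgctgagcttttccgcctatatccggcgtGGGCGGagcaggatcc
Rps27/Rab13, chr3:90213649-90213714: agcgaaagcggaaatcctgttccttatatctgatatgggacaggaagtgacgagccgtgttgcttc
Ndufa8/Morn5, chr2:36049339-36049472: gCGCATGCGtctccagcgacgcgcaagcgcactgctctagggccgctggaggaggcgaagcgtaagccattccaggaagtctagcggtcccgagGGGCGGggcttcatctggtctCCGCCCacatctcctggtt
Palb2/Dctn5, chr7:122132981-122133040: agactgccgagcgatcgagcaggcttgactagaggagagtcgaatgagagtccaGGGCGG
Polr1c/Yipf3, chr17:46248046-46248079: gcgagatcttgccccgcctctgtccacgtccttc
Zfpl1/Cdca5, chr19:6084976-6085096: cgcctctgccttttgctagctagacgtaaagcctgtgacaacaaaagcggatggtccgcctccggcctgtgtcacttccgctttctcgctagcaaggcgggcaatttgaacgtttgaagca

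The second group comes from a list of neighbour pairs described further on, and the searched letters are again absent between Sirt3 and Psmd13.
Sirt3/Psmd13, chr7:140882310-140882393: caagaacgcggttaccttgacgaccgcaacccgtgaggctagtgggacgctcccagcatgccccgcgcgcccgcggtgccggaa
Psmb9/Tap1, chr17:34187331-34187555: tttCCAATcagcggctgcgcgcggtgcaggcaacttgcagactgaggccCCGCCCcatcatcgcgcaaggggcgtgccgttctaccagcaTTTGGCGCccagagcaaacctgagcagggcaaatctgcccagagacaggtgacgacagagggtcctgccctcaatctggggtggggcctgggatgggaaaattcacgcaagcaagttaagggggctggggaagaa

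The last group was picked after its letters were seen, to show the patterns side by side. Alkbh1/Slirp holds the ETS letters on both strands, Mettl6/Eaf1 and Vps53/Tlcd3a hold them near the minus-strand start, Glod4/Mrm3 and Moap1/Tmem251 hold the full CRE palindrome, Stxbp4/Cox11 holds ZBTB33, and Calr3/1700030K09Rik holds AGGTCA on the minus strand.
Alkbh1/Slirp, chr12:87443840-87443895: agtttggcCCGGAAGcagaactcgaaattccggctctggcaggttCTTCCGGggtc
Mettl6/Eaf1, chr14:31495060-31495078: CCGGAAGtgcagcggcctt
Vps53/Tlcd3a, chr11:76179639-76179670: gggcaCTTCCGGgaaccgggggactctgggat
Glod4/Mrm3, chr11:76243700-76243735: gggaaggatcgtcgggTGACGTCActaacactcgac
Moap1/Tmem251, chr12:102743662-102743718: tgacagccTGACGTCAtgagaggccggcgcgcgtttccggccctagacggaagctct
Stxbp4/Cox11, chr11:90638137-90638183: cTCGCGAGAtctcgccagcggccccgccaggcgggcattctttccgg
Calr3/1700030K09Rik, chr8:72443820-72443879: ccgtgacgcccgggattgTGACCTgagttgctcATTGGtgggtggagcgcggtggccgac

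Such stretches could be read for 96 members whose facing starts lay 20 to 250 bp apart, and the member peak overlapped the stretch in 79 of them and lay beside it in 17. Since some pairs hold more than 1 member, there were 91 distinct stretches. Their median length was 76 bases, with a median GC content of 65.5% and 7 CpG dinucleotides. The SP letters were found in 40 of the 91, NFY in 23, ETS in 13, TGACGT in 12, ZBTB33 in 5, AGGTCA in 2, and none of the 11 searched motifs in 25. Where the partner's own promoter entry covered the same bases, in 59 of the 91, both entries held the same letters.

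The members together stood at 1367 distinct genes, 6.24% of the 21900 protein-coding genes on named chromosomes. At 691 members the summit was near 2 genes and at 15 near 3. There were 683 distinct gene sets, of which 23 had a pair of member peaks each, so the members are not all separate sites. Among the sites with 3 genes were Topors/Smim27/Ndufb6, with fold enrichments of 8.17 in MPP replicate 1 and 7.19 in replicate 2, and Prdx5/Trmt112/Esrra, with 6.33 and 7.38, where Esrra encodes an orphan nuclear receptor of mitochondrial genes. Other such sites were BC029722/Eif6/Mmp24, Tomm6/Prickle4/Frs3, Gm45935/Setdb2/Cab39l, Psma4/AY074887/Hykk, Senp3/Tnfsfm13/Tnfsf13, Alkbh1/Slirp/Nrp, Adam15/Dcst1/Dcst2, Anxa9/Cers2/LOC115489748, Chrne/4930544D05Rik/Mink1, Rspry1/Psme3ip1/LOC115486880, the histone genes H2ac20/H2bc21/H2ac21, and Trim23/Trappc13/Shld3, with the last of the 15 on the mitochondrial chromosome. In all, 3 members lay on the mitochondrial chromosome, 9 on the X chromosome and none on the Y chromosome. In 20 members the genes share a name stem and may be related copies, such as Zfp942/Zfp943 and Ccl3/Ccl4, where short reads can be hard to place.

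Fold enrichment here is the authors' value for each peak, the pileup of fragments over its local background, and serves only to describe and rank peaks within a list. In MPP replicate 1 the members ran from 1.47 through a median of 4.96 to 11.2, and in replicate 2 from 1.34 through 6.22 to 14.2. The median pileup was 20 fragments in replicate 1 and 15 in replicate 2, so a typical member rests on few fragments. The 3 mitochondrial members were the lowest in both lists, at folds of 1.34 to 1.60, over pileups of 185 to 273 fragments. In the replicate 1 list 69.8% of members (66.3 to 73.2) ranked in the upper 50%, and in the replicate 2 list 65.3% (61.7 to 68.8). The summits of the 2 libraries lay a median of 34 bp apart, and within 50 bp of each other in 452 members (64.0%). Across members the folds of the 2 libraries had a Spearman correlation of 0.407 (n = 706), or 0.399 without the mitochondrial sites (n = 703). The points share their libraries and the local background, and members at the same genes are not independent.

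**Figure D1:**
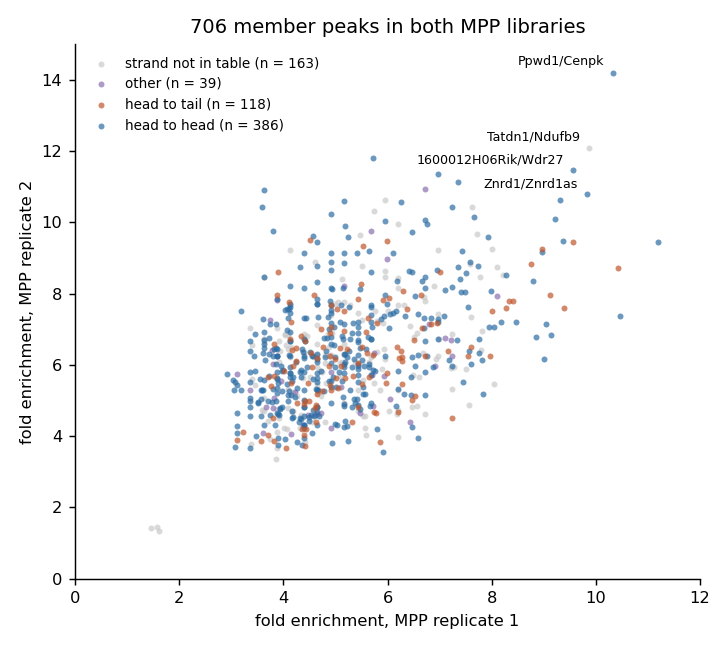
Fold enrichment of each of the 706 members in MPP replicate 1 (x axis) and in its MPP replicate 2 counterpart (y axis), both linear, with points coloured by the orientation of the paired genes and the 4 members of best rank named. Ppwd1/Cenpk stands at the top right with 10.3 and 14.2, the middle 50% of members lie between 4.16 and 6.01 in replicate 1 and between 5.21 and 7.31 in replicate 2, the orientations are mixed throughout, and the 3 mitochondrial members lie apart near 1.5.

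Ranking each member by its worse place in the 2 MPP lists put Ppwd1/Cenpk first, at chr13:104228706-104229055. Ppwd1 encodes a spliceosome-associated prolyl isomerase and Cenpk a subunit of the inner kinetochore. Its pileup was 39 fragments in replicate 1 (exact Poisson interval 27.7 to 53.3) and 33 in replicate 2 (22.7 to 46.3), with folds of 10.3 and 14.2 and no peak in HSC. Its summits in the 2 libraries were 7 bp apart. Tatdn1/Ndufb9 followed with 38 and 32 fragments and folds of 9.87 and 12.1, and Ndufb9 is a subunit of respiratory complex I. At 1600012H06Rik/Wdr27 the folds were 9.56 and 11.5, at 36 and 27 fragments. All these intervals cover counting error only.

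Znrd1/Znrd1as, an RNA polymerase I subunit and its antisense gene, had folds of 9.82 and 10.8. Rars2/Orc3 had 9.30 and 10.6, where Rars2 charges the mitochondrial arginine tRNA and Orc3 belongs to the origin recognition complex. Gdap2/Wdr3 had 9.21 and 10.1, and Ccdc157/Sf3a1, whose Sf3a1 is part of the U2 snRNP and whose ETS match is printed above, had 9.36 and 9.47. These first 7 members were all head to head, or of unknown strand in the case of Tatdn1/Ndufb9.

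Zc3h13/Cpb2 came next, with folds of 9.56 and 9.45, and was arranged head to tail. Zc3h13 is a component of the RNA m6A methyltransferase complex and Cpb2 a carboxypeptidase of blood plasma. Echs1/Paox had the highest replicate 1 fold of all members, 11.2, against 9.45 in replicate 2, and Echs1 is an enzyme of fatty acid oxidation. Zfpl1/Cdca5, where Cdca5 is sororin, a guard of sister chromatid cohesion, had 7.92 and 9.58. Kif18a/Mettl15 had 8.01 and 9.26, Kif18a being a kinesin of the mitotic spindle. Jmjd7/Mapkbp1, head to tail, had 8.96 and 9.24. The 12 members of best rank had pileups of 30 to 45 fragments in replicate 1 and 19 to 33 in replicate 2.

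The members lay mostly where gene starts face away from each other. The reference table gave the strand of both nearest genes for 543 of the 706 members. Of these, 386 (71.1%, 67.1 to 74.9) were head to head, with the genes on opposite strands and their starts adjacent. Another 118 (21.7%, 18.3 to 25.4) were head to tail, where a gene's start lies beside the finish of the neighbour on the same strand. Only 10 (1.84%) were tail to tail, 15 had a start beside a finish on opposite strands, 14 had starts on the same strand, and none had 2 finishes on the same strand. Among all gene pairs of known strand whose ends lay within 2 kb of each other, 3129 in all, 32.1% (30.5 to 33.8) were head to head, 28.8% head to tail and 33.5% tail to tail. The rule for members used no strand, but it favours ends that lie close together, and the median gap of all close pairs was 165 bp head to head, 842 bp head to tail and 544 bp tail to tail. Orientation is therefore not independent of the rule. With the window narrowed to 500 bp the head-to-head share was 78.8%, and with 2 kb it was 58.4%.

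Counted the other way, over gene pairs, 713 of 4841 close pairs (14.7%) had a member peak. The share was 37.6% (34.6 to 40.7) of 1005 head-to-head pairs, 13.7% (11.6 to 16.2) of 902 head-to-tail pairs and 1.43% (0.802 to 2.35) of 1049 tail-to-tail pairs. These shares are not at matched spacing, since 396 of the head-to-tail pairs lie 1 to 2 kb apart, where the rule leaves 1.26% of them. A peak in all 3 libraries showed the same order, with 10.7% of head-to-head pairs, 2.44% of head-to-tail pairs and 0.0953% of tail-to-tail pairs (3.92% of all close pairs). Facing starts thus also led at the sites where HSC had a peak. Of the 132 paired sites of all 3 libraries with known strand, 80.3% (72.5 to 86.7) were head to head, an interval that overlaps that of the members. Of the 251 paired sites found in replicate 1 alone it was 58.2% (51.8 to 64.3), below the members.

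**Figure D2:**
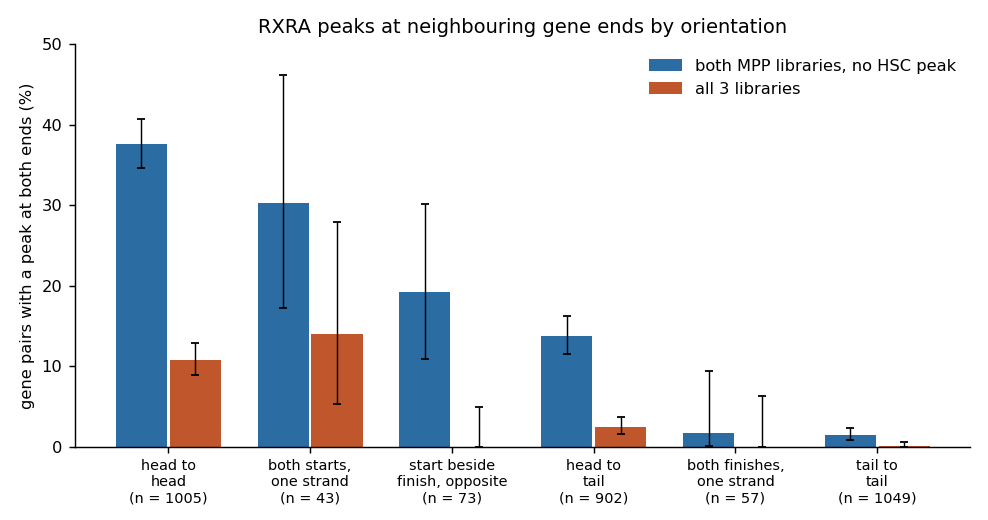
Share of neighbouring gene pairs, in percent, that had an RXRA peak at both ends, by the orientation of the pair, for peaks of both MPP libraries without an HSC peak (blue) and for peaks of all 3 libraries (orange); bars show 95% exact binomial intervals and n is the number of pairs. The blue bars fall from 37.6% for head-to-head pairs to 13.7% for head-to-tail and 1.43% for tail-to-tail pairs, and the orange bars keep that order at a lower level.

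Gene starts held the peaks more often than finishes. Among the members of known strand, 533 of 543 (98.2%) had at least 1 gene start among the 2 nearest ends. This counts members with a start beside a finish, whichever end was nearer. Most close pairs also hold a start, since only 33.5% of all 3129 were tail to tail and 1.82% had 2 finishes on the same strand. At single gene ends, 2808 of 2951 peaks (95.2%) were also at the start. Over single genes, 40.0% of 1993 starts with a head-to-head neighbour (37.8 to 42.2) had an MPP-only peak of both libraries within 1 kb. For starts with a close neighbour in another arrangement it was 26.2% (24.8 to 27.6, n = 3714), and for starts with no close neighbour 16.8% (16.1 to 17.5, n = 11785). The finishes of the same genes had 3.16%, 4.90% and 0.984%. A peak between facing starts counts for both genes, so the windows of such genes are not independent.

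**Figure D3:**
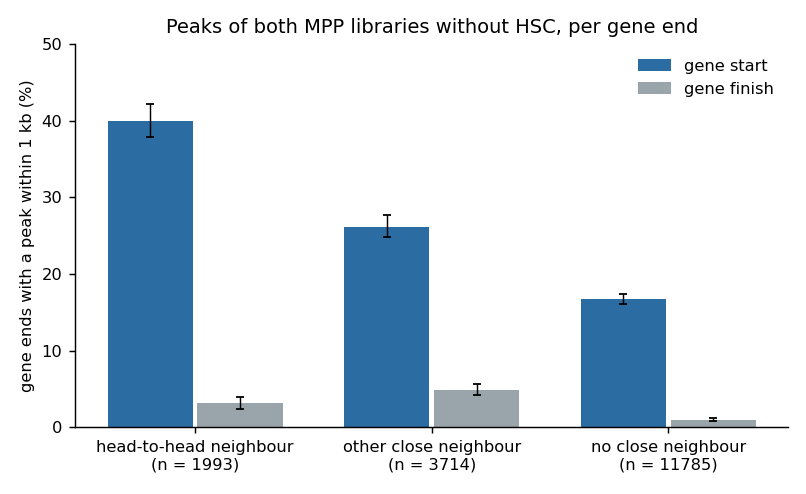
Share of gene starts (blue) and gene finishes (grey), in percent, with a peak of both MPP libraries and not HSC within 1 kb, for genes with a head-to-head neighbour, another close neighbour or none; bars show 95% exact binomial intervals. Starts range from 40.0% with a head-to-head neighbour to 16.8% with none, and finishes stay below 5%.

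The difference between neighbourhoods was smaller among CpG-rich promoters, taken as 300-base windows with a ratio of observed to expected CpG above 0.6. There, 42.1% of head-to-head starts (39.6 to 44.5, n = 1597) and 31.7% of starts with no close neighbour (30.4 to 33.0, n = 4738) had an MPP-only peak. Among the other, CpG-poor starts it was 31.6% (27.0 to 36.4, n = 396) against 6.74% (6.17 to 7.35, n = 7047). Peaks of all 3 libraries had the same order in CpG-rich starts, with 12.6% against 7.34%.

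The spacing of the paired ends was short. Over all members the nearest ends of both genes lay a median of 173.5 bp apart. In 238 of the 386 head-to-head members the starts were apart, with a median of 80 bp between them, and in 148 the annotated genes overlapped at their starts, by a median of 267.5 bp. Among head-to-head pairs with starts apart, a member peak was present at 49.5% (43.5 to 55.4) of 285 pairs up to 100 bp apart, 34.3% (26.3 to 43.0) of 134 pairs from 100 to 200 bp and 23.4% (13.8 to 35.7) of 64 pairs from 200 to 300 bp. It was present at 33.9% (21.8 to 47.8) of 56 pairs from 300 to 500 bp and 31.7% (18.1 to 48.1) of 41 pairs from 500 to 1000 bp, so beyond 100 bp there was no steady decline. Head-to-tail pairs at the same spacing had a member peak at 19.7% (11.5 to 30.5) of 76 pairs up to 100 bp, 19.3% (10.0 to 31.9) of 57 pairs to 200 bp, 27.8% (16.5 to 41.6) of 54 pairs to 300 bp, 23.4% (15.9 to 32.4) of 111 pairs to 500 bp and 25% (19.3 to 31.5) of 208 pairs to 1000 bp. The intervals of the orientations were thus apart up to 100 bp and overlapped in each bin from 100 to 1000 bp. Beyond 1 kb the rule itself leaves few, 1.54% of 65 pairs.

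The position of the summit between facing starts depended on how the peak was placed. By the authors' summit the 238 members with starts apart lay a median of 54.5 bp below the midpoint of the starts, at lower genome coordinates, with 57.6% below both starts, 28.2% between them and 14.3% above both. By the centre of the peak interval the median was 0.75 bp above the midpoint, with 31.9% below, 36.97% between and 31.1% above. Summits lay below the peak centre in 86.7% of members, and in 89.5% of all HSC peaks, 89.4% of all MPP replicate 1 peaks and 91.1% of all MPP replicate 2 peaks. The offset was thus shared by the whole lists, whatever the strand of the genes, and its cause was not tested. Within 100 bp of the midpoint lay 60.9% by summit and 60.5% by centre.

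**Figure D4:**
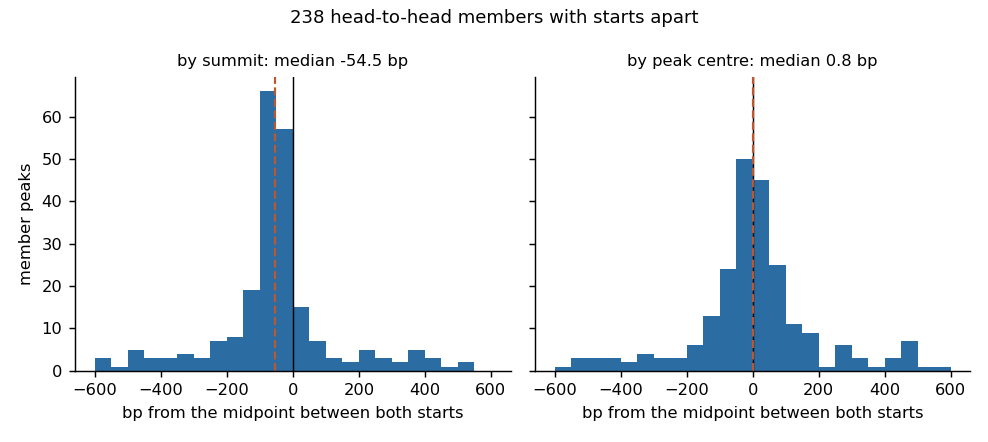
Number of head-to-head members with starts apart (n = 238) by distance in bp from the midpoint between both starts, in 50 bp bins up to 600 bp on either side, placed by the authors' summit (left) and by the peak centre (right); the dashed line is the median and the solid line the midpoint. The summits are shifted to a median of -54.5 bp, while the centres lie around the midpoint with a median of 0.75 bp.

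Near the 1 kb limit the members just inside were Ccdc134/Mei1, whose second gene end was 996 bp from the summit, Rad54b/LOC115489931 at 987 bp and Bcat2/Hsd17b14 at 985 bp. Just outside were Wdr73/Nmb at 1001 bp, Pigl/Ncor1 at 1003 bp and Lrrc24/C030006K11Rik at 1003 bp. Their replicate 1 folds were 4.11, 4.65 and 4.66 inside and 5.93, 5.18 and 3.91 outside. In 29 members the second end was over 900 bp away, and the median distance to it was 264 bp. An end of a long non-coding RNA gene lay within 1 kb of 3.399% of members and of 11.8% of single-end peaks.

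The absence of an HSC peak has to be read against the depth of that library. The genome-wide background recovered from the peak values was 2.87 fragments for MPP replicate 1, 1.08 for MPP replicate 2 and 0.604 for HSC, so the HSC library was the shallowest. The lowest pileup called in HSC was 5 fragments. With each member's replicate 1 pileup scaled to the HSC background, the median expected in HSC was 4.21 fragments, and 470 of the 706 members (66.6%) fell under 5. Scaled from replicate 2 the median was 8.37, and only 18 (2.55%) fell under 5. From both libraries 234 members (33.1%, 29.7 to 36.8) were expected at 5 or more. For the remaining members a similar signal in HSC may not have been detectable at this depth. The 5 fragments are the lowest pileup called, not a level above which every site is called. An expected value of 5 or more therefore does not ensure a call.

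The 187 paired sites that did have an HSC peak had closely similar expected values, with medians of 3.996 fragments from replicate 1 and 9.49 from replicate 2. Their measured HSC pileup had a median of 9 fragments, above the expectation from replicate 1 and below that from replicate 2. These sites were chosen by their HSC peak, and no HSC peak was called under 5 fragments. A measured median above the replicate 1 expectation therefore follows from the choice of sites. Their MPP folds had medians of 4.85 and 6.95, against 4.96 and 6.22 for the members. The nearest HSC summit lay a median of 76933 bp from a member, within 10 kb in 63 members and within 1 kb in 13. Of the 1367 member genes, 63 (4.61%) had another peak, of HSC, whose interval lay within 1 kb of an end. Members were chosen to overlap no HSC peak, which lowers this share. The same share over all genes is not given here, so 4.61% cannot be called low or high. Among replicate 1 peaks that recurred in replicate 2, an HSC overlap was found for 20.9% (18.3 to 23.8) at paired ends, 17.5% (16.4 to 18.7) at single ends and 19.3% (18.4 to 20.2) away from ends. The share at paired ends was thus not the lowest of the 3, and its interval overlaps the others.

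Recurrence between the MPP libraries is part of the rule, and its values are given as a description. Of replicate 1 peaks, 71.5% (68.9 to 74.0) recurred in replicate 2 at paired ends, 59.8% (58.7 to 60.9) at single ends and 38.1% (37.5 to 38.8) away from gene ends. Paired ends made up 16.2% (15.1 to 17.3) of the MPP-only peaks of both libraries at gene ends, 19.4% (17.0 to 22.1) of those of all 3 libraries and 10.5% (9.47 to 11.6) of those of replicate 1 alone. Single-end MPP-only peaks of both libraries had median folds of 5.17 and 6.19, beside 4.96 and 6.22 at paired ends. These folds are of peaks that had already recurred, and the part of peak strength in the recurrence shares was not tested.

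The base composition of the members' promoters was that of CpG-rich promoters. A promoter entry, from 250 bases before to 50 after a start, was matched for 930 member starts. Their median GC content was 62.7% and their median ratio of observed to expected CpG 0.838, with 87.3% (85.0 to 89.4) above 0.6. The head-to-head members alone had 63.3% GC and 90.0% (87.6 to 92.1) above 0.6. Of the head-to-head pairs with no replicate 1 peak, 73.1% (70.0 to 76.1) of windows were above 0.6, of single-end MPP-only starts 77.3% (75.6 to 78.8), and of all protein-coding promoters 48.4%. At paired sites of all 3 libraries it was 91.2% (87.1 to 94.3), overlapping the head-to-head members. The windows of a facing pair overlap and share bases, so these intervals are narrower than they would be over separate pairs. For members, single-end peaks and sites of all 3 libraries the window was the entry nearest the summit. For pairs with no peak and for all promoters it was the entry nearest the gene's outer start. Contrasts between these kinds of set, here and for the motifs below, include this difference in choice, and its part was not tested.

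The ETS letters were more frequent at the members than at facing pairs without a shared peak or at single gene ends. They were in 33.3% of head-to-head member windows (29.9 to 36.96, n = 702). At head-to-head pairs with no shared replicate 1 peak they were in 20.6% (17.9 to 23.5, n = 826). Single-end MPP-only starts had 21.2% (19.7 to 22.8, n = 2666) and all promoters 11.9%. Head-to-tail member windows had 30.9% (22.4 to 40.4, n = 110). Paired sites of all 3 libraries had 30.3% (24.8 to 36.2, n = 261), which overlaps the members. Within CpG-rich windows alone the shares were 34.5% (30.8 to 38.3) in head-to-head members, 25% (21.6 to 28.7) in pairs with no peak and 23.3% (21.5 to 25.2) at single ends. The limit of 0.6 does not match the sets for CpG content, since the median ratio over all windows was 0.855 in head-to-head members, 0.789 in pairs with no peak and 0.779 at single ends, and the part of CpG content in the difference was not tested. The CCGGAAG letters themselves hold a CpG. Pairs with no peak and all promoters also had windows chosen by the gene's outer start, not by a summit.

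Turned around, CpG-rich head-to-head starts with the ETS letters had an MPP-only peak in 48.4% of 463 cases (43.7 to 53.0), and those without in 39.5% of 1134 (36.6 to 42.4). Among CpG-rich starts with no close neighbour it was 45.0% of 727 (41.3 to 48.7) with the letters and 29.3% of 4011 (27.9 to 30.7) without. Among CpG-poor starts with the letters it was 52.4% of 42 (36.4 to 68.0) head to head and 20.4% of 245 (15.5 to 26.0) with no close neighbour. For 388 members the summit lay in a window, at least 50 bp inside its edges. Of these, 18.6% (14.8 to 22.8) had an ETS match within 50 bp of the summit. Of all such positions in those windows it was 15.7%, which is within the interval. Member summits lay a median of 54.5 bp below the peak centre, and the count was not repeated by centre.

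The other motifs searched differed in direction. The ZBTB33 letters were in 7.26% (5.46 to 9.44) of head-to-head member windows, 2.91% (1.87 to 4.29) of windows of pairs with no peak, 2.81% (2.22 to 3.51) of single-end windows and 1.53% of all promoters. TGACGT, which is also part of the CRE palindrome, was in 16.1% (13.5 to 19.03), 10.3% (8.30 to 12.6) and 14.3% (12.9 to 15.6) of the first 3 sets. At paired sites of all 3 libraries, where HSC had a peak too, TGACGT was in 21.5% (16.6 to 26.9) of windows and ZBTB33 in 4.98% (2.68 to 8.37), both overlapping the members. SP letters were in 68.9% of head-to-head member windows and 70.2% of single-end windows. NFY letters were less frequent at head-to-head members, 36.3% (32.8 to 40.0), than at pairs with no peak, 46.2% (42.8 to 49.7). A TATAAA box was in 2.85% (1.75 to 4.37) of head-to-head member windows, 7.63% (5.91 to 9.65) of windows of pairs with no peak and 13.3% of all promoters. NRF1 letters were in 4.13% and YY1 letters in 5.13% of head-to-head member windows, next to 5.33% and 5.21% for pairs with no peak.

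**Figure D5:**
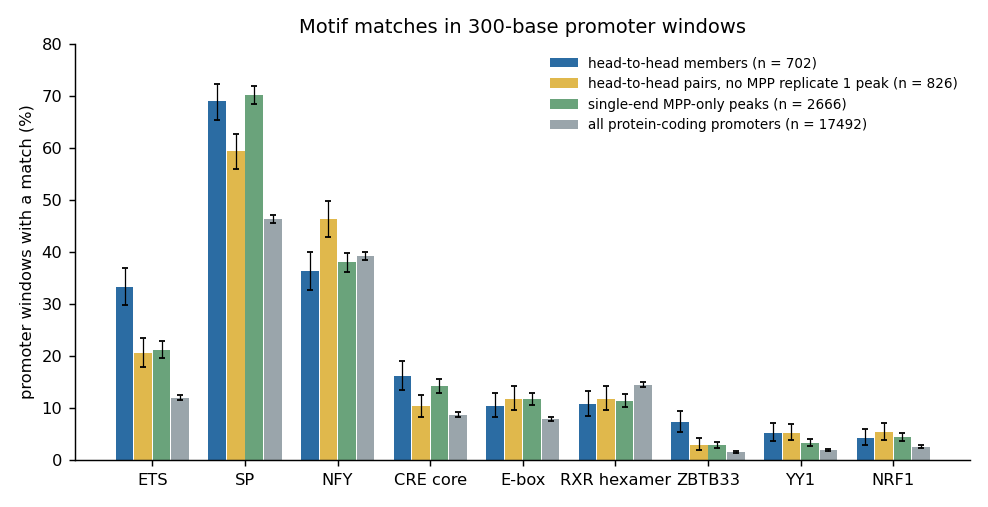
Share of 300-base promoter windows, in percent, that hold each motif on either strand, for head-to-head members, head-to-head pairs with no MPP replicate 1 peak, single-end MPP-only peaks and all protein-coding promoters; bars show 95% exact binomial intervals. ETS matches stand at 33.3% in head-to-head members and 20.6% to 21.2% in the other peak and pair sets, while AGGTCA, labelled RXR hexamer, is not above its share of all promoters. Windows of members and single-end peaks were chosen by the summit, the others by the gene's outer start. Pairs with no peak are those with no summit within 1 kb of an end of both genes.

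The receptor's own hexamer was no more frequent at the members than in promoters at large. AGGTCA was in 10.7% (8.50 to 13.2) of head-to-head member windows and 11.5% (9.53 to 13.7) of all member windows, against 14.5% of all promoters and 11.3% at single-end starts. Exact direct repeats of AGGTCA were searched with 0 to 5 bases between them. They were present in 2 of the 930 member windows (0.215%) and in 12 of all 17492 (0.0686%). Both were spaced by a single base (DR1), the spacing known for RXR homodimers and PPAR partners, and lay at Srp54a and Srp54c. These are near-identical copies of a signal recognition particle gene, so their peaks are uncertain. A relaxed DR1 also accepts G in place of the first base and T in place of the second G of each hexamer. It was in 7 member windows (0.753%, 0.303 to 1.54) and in 0.263% (0.106 to 0.540) of single-end windows. Of all 17492 promoters 32 held it (0.183%, 0.125 to 0.258), an interval below that of the members. The member share rests on few windows, 2 of them at Srp54a and Srp54c, and its interval overlaps that of single-end windows. The other relaxed spacings had no match in member windows. With any of the spacings counted, 0.606% (0.496 to 0.732) of all promoters held a relaxed repeat. These windows cover only the promoter entries, and a sequence absent there may lie elsewhere under the peak.

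The relaxed DR1 matches are printed here because they are the only RXR-type repeats found at members. Each is read 5′ to 3′ on the strand of the gene's start, all in capitals since the whole run is the match.
Srp54a, chr12:55080378-55080390, plus strand: AGGTCAAAGGTCA
Srp54c, chr12:55230284-55230296, plus strand: AGGTCAAAGGTCA
Ndufs6, chr13:73328455-73328467, minus strand: GGGTCAAGGGTCA
Pam16, chr16:4624925-4624937, minus strand: TGACCTCTGACCC
Ranbp1, chr16:18248706-18248718, minus strand: GGGTCAGGGGTCA
Efl1, chr7:82648572-82648584, plus strand: GGGTCAGAGGTCA

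The match at Ranbp1 is the same site as that in the window of Trmt2a, its head-to-head neighbour, so the 7 windows hold 6 sites. Efl1, a ribosome maturation factor paired with Saxo2, had folds of 6.202 and 9.95. Pam16, a mitochondrial import factor paired with Glis2, had 6.56 and 4.84. Ndufs6, of complex I, is paired with Mrpl36 and had 4.91 and 4.94. Trmt2a/Ranbp1 had 4.55 and 4.08.

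Lists of genes were compared with the 6.24% of all protein-coding genes that had a member peak at an end, and with the 19.4% of genes with a close neighbour that did. Of 65 DNA repair genes, 14 (21.5%, 12.3 to 33.5) had a member. Xpc/Lsm3 had folds of 8.10 and 8.73, where Xpc recognises DNA damage and Lsm3 is a splicing factor. Palb2/Dctn5 had 6.98 and 7.30, and Palb2 brings recombination factors to breaks. The checkpoint kinase gene Atr, beside 1700065D16Rik, had 6.11 and 7.47, and Ercc8, of transcription-coupled repair, beside Ndufaf2, had 5.43 and 7.20. Of the repair genes 66.2% have a close neighbour, and of those 32.6% (19.1 to 48.5) had a member, an interval that reaches below the 19.4% of all such genes.

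Of 78 mitochondrial ribosomal protein genes, 17 (21.8%, 13.2 to 32.6) had a member, the highest number of the 15 lists. Mrpl57/Ska3 had folds of 6.59 and 7.41, Mrpl28/Pgap6 6.66 and 7.05, Helq/Mrps18c 5.87 and 7.30, and Mrps16/Cfap70 5.48 and 8.28. Among those with a close neighbour it was 34.0% (21.2 to 48.8), the only list whose lower bound lay above 19.4%. Of 75 genes of oxidative phosphorylation, 14 (18.7%, 10.6 to 29.3) had a member. Besides Ndufb9 they included Ndufa8/Morn5 with 7.73 and 8.77, Sdhd/Timm8b with 6.65 and 8.35, where Sdhd anchors succinate dehydrogenase, and Ndufb6. Given a close neighbour it was 29.2% (17.0 to 44.1), an interval that also reaches below 19.4%.

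Of 37 aminoacyl-tRNA synthetase genes, 7 (18.9%, 7.96 to 35.2) had a member, among them Rars2, Aars beside Exosc6 with folds of 6.02 and 7.88, and Hars2/Hars with 7.24 and 5.31. Of 74 cytosolic ribosomal protein genes, 9 (12.2%, 5.71 to 21.8) had a member. Rpl9/Lias had 7.35 and 11.1, Lrsam1/Rpl12 had 8.04 and 7.06, Rps27/Rab13 had 5.69 and 7.41, and Rps28/Ndufa7 had 5.43 and 6.26. The last joins a ribosomal and a complex I gene with 10 bp between their starts. Given a close neighbour the shares were 36.8% (16.3 to 61.6) for synthetases and 23.7% (11.4 to 40.2) for ribosomal proteins. Both intervals include the 19.4% of all such genes.

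Of 61 spindle, centromere and centrosome genes, 9 (14.8%, 6.98 to 26.2) had a member, and besides Cenpk these included Cdca8, of the chromosomal passenger complex, with folds of 6.98 and 11.4, Mad1l1/Nudt1 with 7.09 and 8.11, and Haus2/Lrrc57 with 6.72 and 8.47. Of 74 splicing genes, 9 (12.2%) had a member, including U2af2 beside Epn1 with 5.92 and 7.17. Of 46 proteasome genes, 7 (15.2%, 6.34 to 28.9) had a member. Tap1/Psmb8 had 5.23 and 6.44, Psma4 5.12 and 8.42, Psma7/Ss18l1 6.32 and 5.18, and Psme2/Rnf31 4.49 and 4.43. Among genes with a close neighbour, 32.1% (15.9 to 52.4) of spindle and 25.7% (12.5 to 43.3) of splicing genes had a member. For proteasome genes it was 29.2% (12.6 to 51.1), and each interval includes 19.4%.

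Of 58 nuclear pore and transport genes, 7 (12.1%, 4.99 to 23.3) had a member, led by Ipo4/Tm9sf1 with 8.76 and 8.83, followed by Dolk/Nup188, Tmem223/Nxf1 and Parpbp/Nup37. Of 97 genes of RNA polymerases and general factors, 10 (10.3%, 5.06 to 18.1) had a member, with Gtf2a2/Bnip2 at 8.01 and 7.52, Polr1c/Yipf3 at 5.62 and 6.78, and Rnf115/Polr3c at 5.26 and 6.38. Of 55 primary cilium genes, 5 (9.09%) had a member. They were Bbs7 beside the cyclin gene Ccna2, with 5.94 and 10.6, Tmem67, Mkks, Rpgrip1l beside Fto, and Ofd1. Replication genes were no more frequent than genes at large, with 3 of 50 (6.00%, 1.25 to 16.5), which were Orc3, Pole beside Pxmp2 with 6.69 and 7.91, and Pole2 beside Klhdc1 with 3.85 and 4.30. A further 7 replication genes were at paired sites of all 3 libraries. Among genes with a close neighbour, 28% (12.1 to 49.4) of nuclear pore and 16.4% (8.15 to 28.1) of polymerase and general factor genes had a member. For cilium genes it was 17.9% (6.06 to 36.9) and for replication genes 12% (2.55 to 31.2). Each of these intervals includes the 19.4% of all such genes.

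Of 67 genes listed as MYC targets, 9 (13.4%, 6.33 to 24.0) had a member, and 10 were at paired sites of all 3 libraries. Among those with a close neighbour 23.1% (11.1 to 39.3) had a member, an interval that includes 19.4%. Ipo4, Atraid/Cad with 5.80 and 7.17, Cd68/Eif4a1 with 5.04 and 7.58, and Emg1/Phb2 with 4.83 and 6.76 led the list, where Cad starts pyrimidine synthesis and Eif4a1 is a translation initiation helicase. Of 15 genes of the MYC network itself none had a member, which allows a share of up to 21.8% by the exact binomial interval, and only 3 of them have a close neighbour.

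Of 50 RXR partner receptors and known targets, 5 (10.0%, 3.33 to 21.8) had a member. Among the 17 with a close neighbour it was 29.4% (10.3 to 56.0), an interval that includes 19.4%. Nr1h3, which encodes the RXR partner LXR alpha, had a member at each of its ends. Acp2/Nr1h3, head to head, had folds of 6.53 and 5.97, and Madd/Nr1h3, head to tail, had 6.65 and 7.96. The Madd/Nr1h3 peak thus sat at the finish of Nr1h3. Nr4a2, an orphan receptor that can pair with RXR, had 5.17 and 8.22 beside LOC105244150. Hadhb and Hadha, the subunits of the mitochondrial trifunctional protein of fatty acid oxidation, share a head-to-head promoter with a member of 17 and 12 fragments, and folds of 4.57 and 6.25. Srebf1, a regulator of lipid synthesis, lay tail to tail with Rai1, with 4.72 and 4.65, so that peak sat at its finish and not at its start.

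In 10 members the genes of both sides were on a list. Besides Ppwd1/Cenpk, Rars2/Orc3, Xpc/Lsm3, Rps28/Ndufa7, Hars2/Hars and Hadhb/Hadha these included Ndufs6/Mrpl36, Aimp2/Pms2 with folds of 4.103 and 5.26, and Paics/Ppat with 3.71 and 6.30, where Paics and Ppat both encode enzymes of purine synthesis. In all, 124 of 897 distinct listed genes stood at a member, and 116 members held at least 1 of them.

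A list of 41 neighbour pairs, written from general knowledge of bidirectional promoters, was looked up in the same way. Of these, 30 have ends within 2 kb in the reference used, and 12 of the 30 had a member peak. That share, 40% (22.7 to 59.4), lies near the 37.6% of all head-to-head pairs, and 14.7% of all close pairs had a member. A further 7 had a shared peak of all 3 libraries, and 10 had no shared replicate 1 peak, though either gene may have one of its own. At Col4a1/Col4a2 the only shared peak was of replicate 1 alone. Besides Ppat/Paics, Hars/Hars2 and Cenpk/Ppwd1, the members were Surf1/Surf2 with folds of 4.32 and 4.51, Tap1/Psmb9 with 4.25 and 6.08, Nthl1/Tsc2 with 6.76 and 6.25, and Gart/Son with 6.16 and 4.84. They also included Polr2h/Clcn2 with 4.16 and 4.69, Ndufs3/Kbtbd4 with 3.89 and 3.76, Sirt3/Psmd13 with 5.17 and 4.42, Trp53/Wrap53 with 5.08 and 7.20, and Cinp/Tecpr2 with 6.67 and 6.32. Tap1 and Psmb9, of antigen processing, face each other 226 bp apart, and Gart and Son 852 bp. Pairs with a peak in HSC as well as both MPP libraries included Prkdc/Mcm4, Hspd1/Hspe1, Rpl4/Snapc5, Cbx3/Hnrnpa2b1, Pcna/Cds2 and Timm10b/Arfip2. By the strands of the reference Rpl4/Snapc5 is head to tail and not bidirectional. Among the 30 pairs Fancg/Vcp is also head to tail and Ercc1/Cd3eap tail to tail, and neither had a shared replicate 1 peak. The ends of Fancg/Vcp lie 1830 bp apart and those of Tbp/Psmb1 1612 bp, where the rule itself leaves few.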

How the data were processed

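RXRA CUT&RUN peaks were analysed in 3 libraries, 1 of HSC and 2 of MPP. The submitters' processing notes list MACS2 2.1.4, Bowtie2 2.3.4.1, Trim Galore 0.4.2 and, for adapters, cutadapt 1.9.1, with mm10 as build. How these were set, whether duplicates were kept and whether a control library was used is not given in the sources used here. Each deposited file is a headerless narrowPeak list of 10 columns for 1 library. The authors' deposited fold enrichment is the ratio of the summit's pileup to the background around it. The columns of −log10 p and −log10 q were taken as deposited, and all 3 lists reach down to q values just below 0.1. The deposited score is 10 times the −log10 q value and was used no further.

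Total reads are not in the lists, so depth was taken from the peaks. Each peak's pileup and background were solved from its fold (1 added to both terms) and its Poisson p. The pileups were whole numbers, with a tolerance of 0.001 on the −log10 scale, for nearly all peaks. By the lowest background, MPP replicate 1 was 4.75 times and replicate 2 1.79 times as deep as HSC. Overlap meant at least 1 bp, checked against bedtools 2.31.1. Genes and promoter sequences came from RefSeq tables of GRCm38.p6, matched by gene ID. A promoter entry, which also gives the strand, was matched for 17492 of 21900 protein-coding genes. Summits and gene ends were compared within 1 kb. Motifs were searched in 300-base promoter windows on both strands, and a match is a description of the letters only. For sets of peaks the window nearest the summit was used, and for other sets the window nearest the gene's outer start. Motifs may overlap, since TGACGT is part of the CRE palindrome. The sequence of whole peaks was not used here.

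Shares have exact binomial (Clopper-Pearson, 95%) and pileups exact Poisson intervals. Both cover counting error only, and PCR copies may be among the fragments. No test between HSC and MPP was made, since HSC has 1 library. The code that selects members was run on simulated peaks, where all 200 planted members were recovered with 0 false ones. The planted sites were picked with the same gene-end search and overlapped by design. This therefore checks the code only and not how real peaks overlap. The members, gene lists, listed neighbour pairs and motifs were chosen with earlier results of these data known. Named genes are the 12 members with the best worse rank by fold in the MPP lists, up to 4 members per gene list, listed neighbour pairs with a member, 3 members on each side of the 1 kb limit, members with more than 2 genes, member windows with a direct repeat, and Rxra, Rxrb and Myc. Pairs whose sequence is printed in the last group, Nr1h3's neighbours and Srebf1 were also named after their values were seen. Mitochondrial and Y genes were left out of the naming rule, and a few pairs that it names are not reported here. Python 3.11.15, numpy 2.4.6, pandas 2.3.3, scipy 1.17.1 and matplotlib 3.10.9 were used. Alternatives were windows of 500 bp and 2 kb, the whole peak or its centre in place of the summit, 50% overlap, no HSC peak within 1 kb, q at or below 1e-05, MPP lists held to the length of the HSC list, predicted genes or mitochondrial sites left out, and each MPP library left out. The peak centre and the removal of mitochondrial sites were chosen after seeing the data.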

Additional observations from a re-analysis of the deposited data

How the results depend on the processing

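Of 159 comparisons of 14 results with an alternative setting, 135 stayed within their interval, or within 1.5 times for a count, and 24 moved. With a window of 500 bp, paired ends made up 12.9% of gene-end MPP-only peaks, 78.8% of members were head to head, the median distance between ends was 99 bp, and the ETS letters were in 36.5% of member windows. With 2 kb the share was 20.4%, the head-to-head share 58.4% and the distance 324.5 bp, as a wider window admits wider pairs by construction. With q at or below 1e-05 the median folds were 5.68 and 7.001. With the MPP lists held to the length of the HSC list, 81 members remained and made up 12.8% of gene-end peaks, with a median distance of 97 bp, median folds of 7.42 and 8.53, and 21 listed genes. In that set the ETS letters were in 43.0% of member windows, NFY in 31.6%, YY1 in 7.89% and TGACGT in 12.3%. Leaving out 1 MPP library at a time gave shares at paired ends of 13.8% to 16.5%, head-to-head shares of 67.0% to 73.4%, a median replicate 1 fold of 4.65 without replicate 2, a median replicate 2 fold of 5.82 without replicate 1, and NFY letters in 36.3% to 42.3% of member windows. The causes of these shifts were not tested beyond the construction of each setting.

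Over the settings run the head-to-head share ranged from 58.4% to 78.8%. The 32.1% of all close pairs is for ends within 2 kb, the reach of the 1 kb window, and was not recomputed for the other windows. With the 1 kb window the share ran from 67.0% to 74.2%, above that 32.1%. The main limits are the single HSC library, its lower depth, pileups of about 15 to 20 fragments per member, strand known for 543 of 706 members, and the lack of a control antibody library in the lists used here. No paired analysis was possible because the label of the single HSC library gives no replicate number and the results come from no test between groups.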
